A study of Caenorhabditis elegans with 2 samples.

Results

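Chromatin immunoprecipitation and sequencing (ChIP-seq) against DPL-1 gave 277 peaks on chromosome V of Caenorhabditis elegans whose summit lay in the promoter window of exactly 1 protein-coding gene. The window ran from 500 bp upstream to 200 bp downstream of each annotated protein-coding transcript start. These single-gene promoter peaks belonged to 267 genes. They were 277 of the 580 peaks that chromosome V held in the authors' thresholded list. The threshold is on the irreproducible discovery rate (IDR), a measure of how well replicates rank the same peaks. That list held 3726 peaks in all, of which 1622 were single-gene promoter peaks. Of the other chromosome V peaks, 103 had summits in the windows of several genes and 200 lay outside promoters.

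The study had 1 group of 2 biological replicates, made from mixed-sex whole larvae of the first larval stage (L1). The strain, YL448, carries the unc-119(ed3) III mutation and the transgene vrIs83. In vrIs83 the ges-1 promoter drives DPL-1 fused to GFP and FLAG with the dpl-1 3' untranslated region, beside unc-119(+), which serves as a rescue marker. The ges-1 promoter is active in the intestine, whereas the chromatin came from whole larvae. The antibody label names dpl-1 and gives no epitope, so native and transgenic DPL-1 cannot be told apart, nor can strong binding in few cells and weak binding in many. Control libraries were not analysed here, no other condition was compared, and the read depth is unknown.

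DPL-1 is the DP protein of C. elegans. DP proteins pair with E2F proteins, and the pair binds DNA at TTSSCGC-type sites, where S is C or G. In C. elegans the pair joins LIN-35, the retinoblastoma-like protein, and the MuvB proteins in the DREAM complex, which is known for holding down cell cycle and germline genes in somatic cells. LIN-54, the DNA-binding MuvB subunit, recognises the cell cycle homology region (CHR), with letters such as TTTGAA or TTCGAA.

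The sequences under the strongest summits show what the highest signals lay on. The 8 strongest peaks whose 81 bp around the summit overlap no annotated exon are printed 5′ to 3′ on the strand of the gene, from the RefSeq genome of WBcel235, the assembly named ce11 in the deposited lists. Capitals mark E2F-like strings (TTCCCGC or TTCGCGC or TTGCCGC or TTGGCGC) and CHR-like strings (TTTGAA or TTCGAA), on either strand. A match is a description of the letters and not evidence of a binding site.
efl-1, chrV:16965803-16965883, - strand: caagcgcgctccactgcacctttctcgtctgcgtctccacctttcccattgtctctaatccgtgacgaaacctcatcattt
sec-61.G, chrV:10897340-10897420, - strand: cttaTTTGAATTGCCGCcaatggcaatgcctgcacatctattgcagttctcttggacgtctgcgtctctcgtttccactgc
syf-3, chrV:5939676-5939756, + strand: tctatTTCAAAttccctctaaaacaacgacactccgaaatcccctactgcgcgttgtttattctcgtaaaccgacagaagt
pafo-1, chrV:11521589-11521669, + strand: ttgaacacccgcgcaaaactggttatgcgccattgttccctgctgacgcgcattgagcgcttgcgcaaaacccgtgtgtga
cyn-3, chrV:15189709-15189789, + strand: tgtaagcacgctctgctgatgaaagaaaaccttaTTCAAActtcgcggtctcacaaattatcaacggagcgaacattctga
tomm-20, chrV:12343718-12343798, - strand: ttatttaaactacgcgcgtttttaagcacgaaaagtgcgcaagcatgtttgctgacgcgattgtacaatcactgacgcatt
spas-1, chrV:9175369-9175449, + strand: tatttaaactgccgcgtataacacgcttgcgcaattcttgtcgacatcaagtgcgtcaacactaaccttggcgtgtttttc
trm-2A, chrV:904748-904828, + strand: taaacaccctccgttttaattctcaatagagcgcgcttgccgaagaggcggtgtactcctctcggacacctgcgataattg
In these 81 bp windows an E2F-like string stood only in the sec-61.G window, where it directly followed a CHR-like string, and a CHR-like string stood in those of sec-61.G, syf-3 and cyn-3. The other 5 windows had neither string. Within 50 bp of the summit, the distance used below, pafo-1 also had a CHR-like string. The peaks at efl-1, tomm-20, spas-1 and trm-2A had neither string within that distance. Peaks at lrpr-1, Y39B6A.43 and E01B7.2 were stronger than that at trm-2A but were left out by the exon rule. They had a CHR-like string and no E2F-like string within 50 bp.

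Among the 277 peaks, 21 held both kinds of string within 50 bp of the summit. The 4 strongest of them lay at sec-61.G, slr-2, F13A7.14 and mcm-7, and the 101 bp windows of the 3 not yet printed show how the strings were placed.
slr-2, chrV:18086927-18087027, + strand: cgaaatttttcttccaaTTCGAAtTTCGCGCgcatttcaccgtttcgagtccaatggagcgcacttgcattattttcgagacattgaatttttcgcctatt
F13A7.14, chrV:16401678-16401778, + strand: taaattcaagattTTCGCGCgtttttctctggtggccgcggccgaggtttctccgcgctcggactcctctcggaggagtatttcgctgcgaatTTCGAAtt
mcm-7, chrV:4346951-4347051, + strand: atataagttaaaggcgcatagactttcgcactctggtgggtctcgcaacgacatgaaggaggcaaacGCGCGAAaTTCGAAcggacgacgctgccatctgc
The slr-2 and mcm-7 windows share a stretch on opposite strands in which a CHR-like string and an E2F-like string are separated by 1 letter. At F13A7.14 the strings lay far apart. A CHR-like string in either orientation, followed within 4 letters by an E2F-like string, a layout chosen after these windows were seen, was present at 8 of the 277 peaks (2.89%). The same layout was present at 34 of 1345 single-gene promoter peaks of the other chromosomes (2.53%) and in 14 of 6893 background windows of chromosome V (0.203%). Background windows were of the same length, centred 150 bp upstream of each protein-coding transcript start of chromosome V. The 8 peaks lay at sec-61.G, slr-2, mcm-7, pptr-2, penr-1, mys-1, zhit-1 and E02C12.12, with signals between 41.9 and 3230.2.

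Over all 277 peaks, 49 had an E2F-like string within 50 bp of the summit (17.7%, exact 95% interval 13.4 to 22.7), against 18.1% of the single-gene promoter peaks of other chromosomes (interval 16.1 to 20.2) and 3.09% of the background windows. A CHR-like string was present at 72 peaks (26.0%, interval 20.9 to 31.6), against 33.1% on the other chromosomes (interval 30.6 to 35.7) and 33.8% of the background windows. Intervals here and below are Clopper-Pearson intervals of counts alone. The share with an E2F-like string was thus above the background share of upstream windows and the share with a CHR-like string was not. The median GC content was 44.6% in the peak windows and 33.7% in the background windows, and its part in these shares was not tested.

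Each of the 4 E2F-like strings was present in a larger share of peaks than of background windows. TTCGCGC was found at 18 peaks (6.50%, against 0.725% of background windows), TTCCCGC at 15 (5.42%, against 0.957%), TTGGCGC at 12 (4.33%, against 0.595%) and TTGCCGC at 10 (3.61%, against 0.856%). The 2 CHR-like strings differed from each other: TTTGAA was found at 55 peaks (19.9%, against 29.2% of background windows) and TTCGAA at 22 (7.94%, against 6.40%).

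The strings went with signal. When the 277 peaks were ordered by signal and cut into 5 nearly equal classes, from strongest to weakest, an E2F-like string was present in 32.1, 26.8, 9.09, 7.27 and 12.7% of them. A CHR-like string was present in 58.9, 26.8, 14.5, 12.7 and 16.4%. The strongest class, with signals from 525 to 3429, therefore held 33 of the 72 peaks with a CHR-like string. Peaks with an E2F-like string had a median signal of 364, against 104 for those without, and peaks with a CHR-like string had a median of 463, against 90.1 for those without.

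A different stretch, CTGCGTCTC, was noticed in the efl-1 and sec-61.G windows after they were printed. It was present on either strand at 42 of the 277 peaks (15.2%), against 10.3% of single-gene promoter peaks on other chromosomes and 1.12% of background windows. The median signal of those 42 peaks was 96.9, below the median of all 277. GCTGACGCG, noticed in the pafo-1 and tomm-20 windows, was present at 1 further peak of the 277, at 16 of 1345 single-gene promoter peaks of other chromosomes (1.19%) and in 0.0435% of background windows.

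The signal of a peak is the authors' own value, on a scale the files do not state. Pooled signal ran from 39.6 to 3429 over the 277 peaks, with a median of 116 and quartiles of 58.1 and 374. The 24 peaks above 1000 and the 20 strongest alone, which held 41.4% of the summed signal, show how uneven the values were. On the other chromosomes together the median of single-gene promoter peaks was 118, with 137 on chromosome I, 133 on II, 137 on III, 117 on IV and 70.5 on X. Within chromosome V the single-gene peaks had a lower median than the 103 shared-promoter peaks (209) and a higher one than the 200 peaks outside promoters (66.5). Among the 100 strongest peaks of the whole list, 14 were single-gene promoter peaks of chromosome V.

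**Figure D1:**
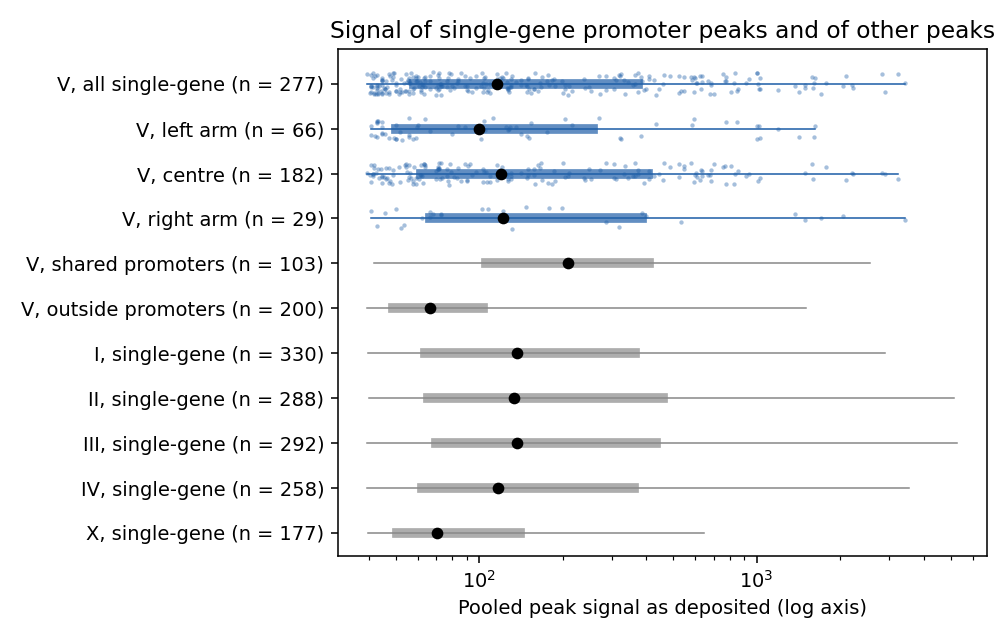
Pooled peak signal (log axis) of the single-gene promoter peaks of chromosome V and of its regions (blue, each point a peak), above the other peaks of chromosome V and the single-gene promoter peaks of the other chromosomes (grey). Thin lines run from lowest to highest, thick lines join the quartiles and black dots are medians. For single-gene promoter peaks the median is 116 over all of chromosome V and 70.5 on X.

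The strongest single-gene promoter peak of chromosome V lay at efl-1, which encodes the E2F protein that pairs with DPL-1. It covered chrV:16965661-16966020, with its summit at -168 bp, where negative distances are upstream of the start. Its signal was 3429 in the pooled data, 2908 in replicate 1 and 526 in replicate 2, and it ranked 6 in the pooled list, 6 in that of replicate 1 and 25 in that of replicate 2. In both replicates it stood near the top, although no E2F-like or CHR-like string lay within 50 bp of its summit.

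Housekeeping genes followed it. The peak of sec-61.G, the gamma subunit of the channel that takes proteins into the endoplasmic reticulum, had a signal of 3230.2 (2699 in replicate 1 and 537 in replicate 2). That of syf-3, a splicing factor, had 2894 (2336 in replicate 1 and 581 in replicate 2). That of pafo-1, a subunit of the PAF1 complex of transcription elongation, had 2834 (2249.8 in replicate 1 and 586 in replicate 2). These 4 peaks were the only single-gene promoter peaks of chromosome V among the 20 strongest of the list, at ranks 6, 8, 14 and 19.

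The next peaks of chromosome V lay at cyn-3, a cyclophilin (2218), tomm-20, a receptor for import into mitochondria (2201), lrpr-1, reported to act in X chromosome segregation (2103), and Y39B6A.43 (2048). They were followed by spas-1, a homologue of the microtubule-severing enzyme spastin (1771), E01B7.2 (1705), trm-2A, a homologue of tRNA methyltransferases (1617), and ttc-37, a homologue of a SKI complex subunit (1610.2). The last of the 15 strongest were cyn-1, also a cyclophilin (1598), T07F10.3 (1588) and vars-1, the valyl-tRNA synthetase (1496). Of these 15 genes, 3 lay in the right arm of the chromosome (efl-1, Y39B6A.43 and E01B7.2), 2 in the left arm (trm-2A and ttc-37) and 10 in the centre.

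The weakest of the 277 lay at R10E8.8 (40.7), smk-1 (40.6) and alh-4 (39.6). The lowest signal in the IDR list was 39.5. The first chromosome V peaks below it that would otherwise belong lay at tig-2 (39.4), nhr-50 (39.2) and rike-1 (38.6), so the threshold cut through peaks of nearly equal signal.

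All 277 peaks had a summit within 100 bp in the list of replicate 1 and 254 had one in that of replicate 2 (91.7%, interval 87.8 to 94.7). On the other chromosomes 88.2% of single-gene promoter peaks had a match in replicate 2 (interval 86.3 to 89.9). Each replicate list holds 30000 peaks without a threshold, so a match is a weak requirement. Against the 3726 strongest peaks of each replicate alone, 266 peaks had a match in replicate 1 (96.0%) and 204 in replicate 2 (73.6%). From the strongest to the weakest signal class, 100, 100, 92.7, 83.6 and 81.8% were matched in the full list of replicate 2.

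Signal was higher in replicate 1 at every matched peak, with a median ratio of replicate 1 to replicate 2 of 5.28 and a range from the 10th to the 90th percentile of 3.42 to 10.1. The order was much alike at the top: of the 20 strongest of the 277 in replicate 1, 18 were among the 20 strongest in replicate 2, and 95 of the 100 strongest. The highest ratios stood at W08A12.2 (46.6 in replicate 1 and 2.52 in replicate 2, ratio 18.5) and F47B8.3 (46.2 and 2.60, ratio 17.8). The lowest stood at smk-1 (27.0 and 13.8, ratio 1.95) and W03F9.1 (91.7 and 42.9, ratio 2.14). All 4 were weak or middling peaks.

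**Figure D2:**
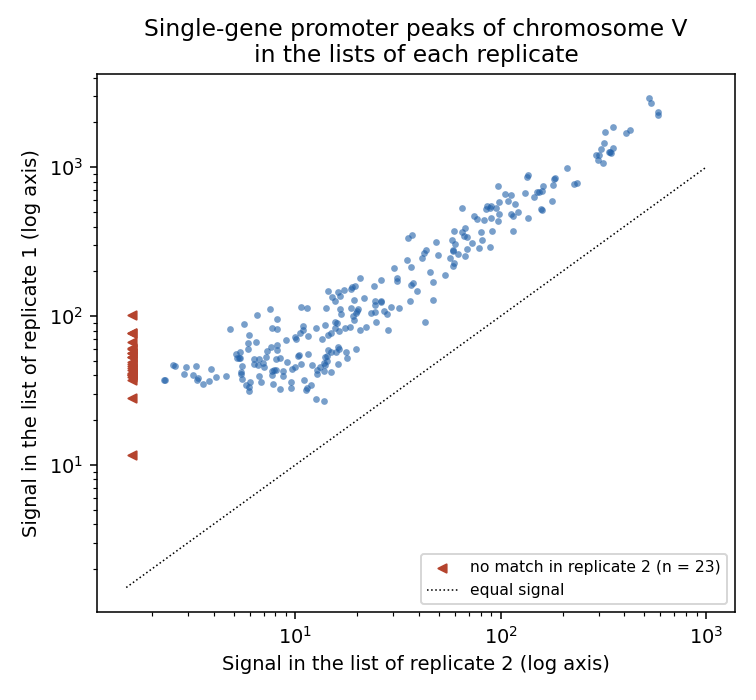
Signal of each of the 277 single-gene promoter peaks of chromosome V in the list of replicate 1 against that in the list of replicate 2 (both log axes); red triangles at the left edge are the 23 peaks with no match in replicate 2. All points lie above the dotted line of equal signal, at a median ratio of 5.28.

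Of the 23 peaks with no match in replicate 2, the strongest lay at sqv-4, R186.8 and nstp-10. The sqv-4 peak had a pooled signal of 149 and a signal of 11.6 in replicate 1, and sqv-4, which encodes a UDP-glucose dehydrogenase, also held a second, stronger peak of 392 that both replicates had. The R186.8 peak (110 pooled, 101 in replicate 1) likewise lay beside a stronger one of 166. The nstp-10 peak (84.1 pooled, 76.4 in replicate 1) was the only peak of its gene.

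In all, 9 genes held several single-gene promoter peaks, which share a gene and are not independent. C34B4.2 held 3, with signals of 83.2, 70.9 and 69.9. At trm-2A the 2 peaks differed most, with signals of 1617 and 60.01 at different transcript starts.

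Most summits lay upstream of the transcript start, in a window that itself reached further upstream (500 bp) than downstream (200 bp). The median position was -165 bp, with quartiles of -282 and -72 bp, and 252 of 277 summits were upstream (91.0%), against 93.6% on the other chromosomes. The 50 bp bin from -200 to -150 bp held the most summits, 46 of all 277 and 13 of the 50 strongest. The bins from -250 to -200 bp and from -50 bp to the start followed, each with 36 summits and 4 of the 50 strongest. The deposited width was 320 bp at 164 of the 277 peaks and at none of the strongest signal class. In that class 98.2% of summits were upstream, and in the weakest class 83.6%.

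**Figure D3:**
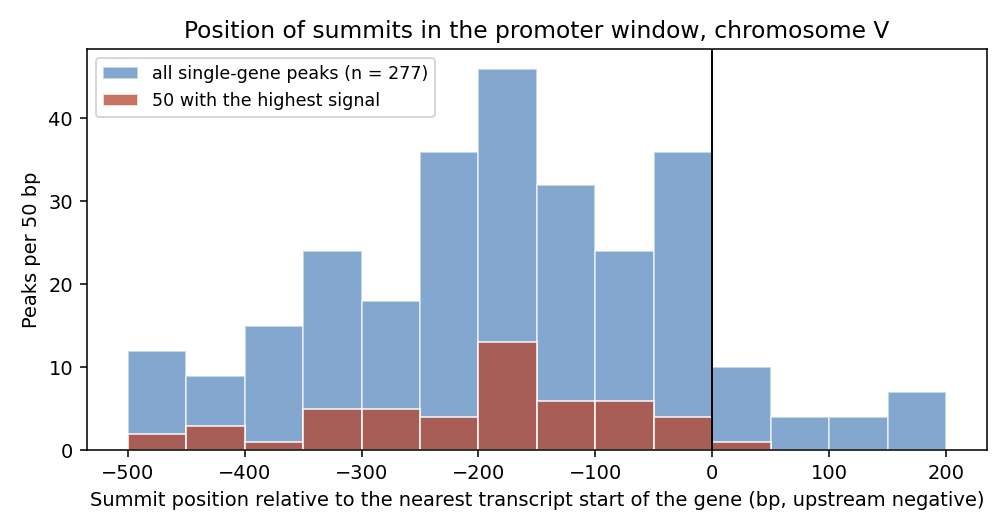
Number of summits per 50 bp by position relative to the nearest transcript start of the gene, for the 277 single-gene promoter peaks of chromosome V (blue) and the 50 of them with the highest signal (red). Both are densest between -200 and -150 bp, with 46 and 13 summits, and 1 of the 50 strongest lies downstream of the start.

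Some summits lay near the edges of the window. Those nearest to its edges from inside lay at gck-2 (-496 bp, signal 57.8) and Y39B6A.34 (198 bp, signal 45.8). Just outside lay peaks at vps-39 (-526 bp, signal 72.0), Y97E10C.1 (-527 bp, signal 52.7) and srbc-58 (279 bp, signal 49.9).

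Of 4994 protein-coding genes on chromosome V, 267 had a single-gene promoter peak, 5.35% (interval 4.74 to 6.01), against 7.94% of genes on all chromosomes. The share was 11.1% on I, 8.23% on II, 10.8% on III, 7.68% on IV and 6.48% on X (interval on X 5.59 to 7.47). Chromosome V had the lowest share, with an interval that overlapped that of X alone. When genes with a peak in a shared promoter were added, the shares were 9.37% on V, 14.3% over all chromosomes and 8.09% on X, so that X was then the lowest.

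Chromosome V is known for its large gene families. Chemoreceptors, nuclear hormone receptors, C-type lectin, F-box and MATH genes, and detoxification enzymes made up 1345 of its genes (26.9%), against 12.5% of genes on all chromosomes, and 24 of them had a single-gene promoter peak (1.78%). Among the other 3649 genes of chromosome V, 243 had one (6.66%, interval 5.87 to 7.52), against 8.75% on all chromosomes, 6.65% on X and 8.14% on IV. Without the families, a count added after the data were seen, V and X were thus level, with intervals that overlapped that of IV (7.18 to 9.18) and lay below those of I, II and III. The peaks of family genes were weak, with a median signal of 50.9 and a highest of 154, against a median of 127 for the peaks of other genes.

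Along the chromosome, the centre (the middle 50% of the length) held 182 of the 277 peaks (65.7%, interval 59.8 to 71.3), the left arm (the first 25%) 66 and the right arm 29. The centre held 52.5% of the protein-coding genes and 68.0% of the other IDR peaks of chromosome V. Peaks stood at 17.4 per Mb in the centre, 12.6 per Mb in the left arm and 5.54 per Mb in the right arm.

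Per gene, the right arm stood apart from the rest of the chromosome. A single-gene promoter peak was found at 2.41% of right-arm genes (28 of 1162, interval 1.61 to 3.46), 5.38% of left-arm genes (65 of 1208, interval 4.18 to 6.81) and 6.63% of centre genes (174 of 2624, interval 5.71 to 7.65). The interval of the right arm overlapped neither of the others, which overlapped each other, though neighbouring genes are not independent and the intervals count them as if they were. With the 3726 strongest peaks of replicate 1 alone the shares were 2.50, 5.22 and 6.55%, and with those of replicate 2 alone 2.58, 5.22 and 5.79%. Family genes were 35.4% of the right arm, 38.6% of the left arm and 17.8% of the centre. Outside these families the shares were 3.46% in the right arm (interval 2.27 to 5.03), 6.47% in the left arm (interval 4.81 to 8.49) and 7.84% in the centre (interval 6.74 to 9.05), so the intervals of the arms then overlapped.

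Among family genes themselves, 17 of 466 in the left arm had a peak (3.65%), 5 of 468 in the centre (1.07%) and 2 of 411 in the right arm (0.487%). The few right-arm peaks were not weaker than the others: median signal was 122 in the right arm, 99.6 in the left arm and 119.8 in the centre, and the right arm held the strongest peak of all, at efl-1. A CHR-like string stood at 31.9% of centre peaks (interval 25.17 to 39.2), 12.1% of left-arm peaks (interval 5.38 to 22.5) and 20.7% of right-arm peaks (interval 7.99 to 39.7).

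**Figure D4:**
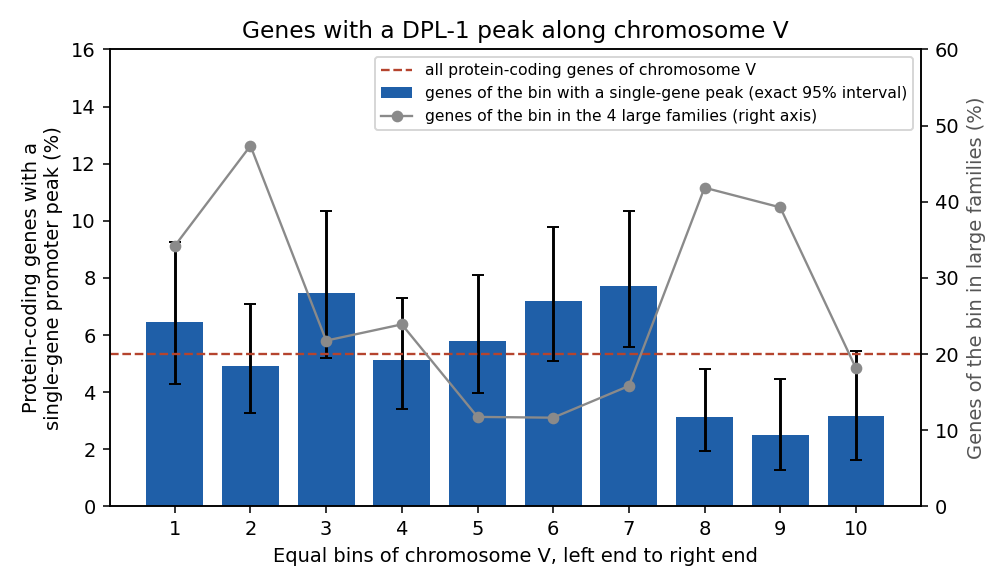
Share of protein-coding genes with a single-gene promoter peak in 10 equal bins of chromosome V from its left to its right end (bars, exact 95% intervals), with the chromosome's 5.35% as a dashed line and the share of large-family genes as grey points (right axis). Bins 8 to 10 are lowest, at 3.13, 2.51 and 3.16%, while large families make up 47.4% of genes in bin 2, 41.8% in bin 8 and 18.2% in bin 10.

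In 10 equal bins the share was highest in bin 7 (7.72%), bin 3 (7.48%) and bin 6 (7.18%), and lowest in bins 9 (2.51%), 8 (3.13%) and 10 (3.16%). Genes of the large families made up 39.3% of genes in bin 9, 41.8% in bin 8, 18.2% in bin 10 and 47.4% in bin 2, which had 4.92% of its genes with a peak, and their part in these shares was not tested. Signal differed by bin as well, with medians of 260.0 in bin 8 and 52.5 in bin 2. The longest stretch without a single-gene promoter peak was 817 kb, from 15.58 to 16.40 Mb, and held 263 protein-coding genes, of which 133 belonged to the families. Neighbouring peaks were 43.3 kb apart in the median, and 38 pairs stood within 5 kb.

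Of the 267 genes, 186 had a gene name (69.7%, interval 63.8 to 75.1), against 57.3% of all protein-coding genes of chromosome V. Peaks at genes with a name had a median signal of 129.6, against 90.1 for those at genes known by a sequence name. In 24 lists of genes by function or family, 91 of the 267 genes were found (34.1%), against 1846 of all 4994 protein-coding genes of chromosome V (37.0%), and 176 were in none. The counts below stand against the 5.35% of all chromosome V genes, and genes with a peak only in a shared promoter are given apart because the choice of single-gene promoters leaves them out. The lists were drawn up with earlier results of these data known, so they describe the genes and carry no test.

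Cell cycle genes are the textbook targets of E2F and DREAM. Of 6 DNA replication and G1/S genes on chromosome V, 2 had a single-gene peak: mcm-7, a subunit of the replicative helicase (1030.1 pooled, 846 in replicate 1, 184 in replicate 2), and rfc-1, the large subunit of the clamp loader (461 pooled, 373 in replicate 1, 90.4 in replicate 2). A further 3, ctf-4, lig-1 and mcm-3, had a peak in a shared promoter. Of 13 mitosis and chromosome segregation genes, 5 had a single-gene peak, all in the centre and all with a match in both replicates: sas-5, a centriole assembly protein (635), mdf-1, a spindle checkpoint protein (611), hcp-1, a CENP-F-like kinetochore protein (548), bmk-1, a kinesin-5 motor (344), and bir-1, the survivin homologue (286). Another 5 had a shared-promoter peak, among them air-1, the Aurora A kinase. The signals of these 5 single-gene peaks thus lay within a narrow range, all above the chromosome's median of 116.

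Of 7 DNA repair and checkpoint genes, 3 had a shared-promoter peak alone (atl-1, mre-11 and rmh-2) and 3 had a single-gene peak, which spanned the range of signals. The peak of chk-1, the checkpoint kinase, had 1004 (866 in replicate 1 and 135 in replicate 2), that of rad-50, of the double-strand break complex, 209 (180 and 31.1), and that of pms-2, a mismatch repair gene, 44.7 (37.2 and 2.31). Of 30 histone genes on the chromosome, 1 had a single-gene peak (3.33%, interval 0.0844 to 17.2), his-37 (605), and 2 had a shared-promoter peak. Histone genes are near-identical copies, so reads may be split between them and these counts are uncertain.

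DREAM, synMuv and chromatin regulators led the 24 lists by share of genes with a single-gene peak, with 6 of 11 genes (54.5%, interval 23.4 to 83.2). Besides efl-1 they were mys-1, a MYST-family histone acetyltransferase (669 pooled, 513 in replicate 1, 160 in replicate 2), mes-4, a histone H3 lysine 36 methyltransferase of the germline (465 pooled, 394 in replicate 1, 67.0 in replicate 2), dpy-30, a subunit of H3 lysine 4 methyltransferase complexes (252), swsn-1, of the SWI/SNF complex (66.7), and let-418, a Mi-2 chromatin remodeller (41.4). All 6 had a match in both replicates, and their signals ran from near the top of the list to near its threshold. No further gene of this list had a shared-promoter peak. With shared-promoter peaks added, the list stayed at 54.5% and no longer led. All 3 nuclear pore genes (100%) then had a peak, with DNA repair at 85.7%, replication at 83.3% and mitosis genes at 76.9%. Ribosomal protein, splicing and translation genes stood at 62.5, 61.5 and 60%. Outside chromosome V, 28 of 87 DREAM, synMuv and chromatin genes had a single-gene promoter peak (32.2%), against 7.94% of genes on all chromosomes. The list did not lead there: DNA replication genes stood at 44%, cytosolic ribosomal protein genes at 40.5% and nuclear pore genes at 39.5%. The gene slr-2, a zinc finger gene known for genetic interaction with lin-35, was in no list and had a signal of 1495.

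**Figure D5:**
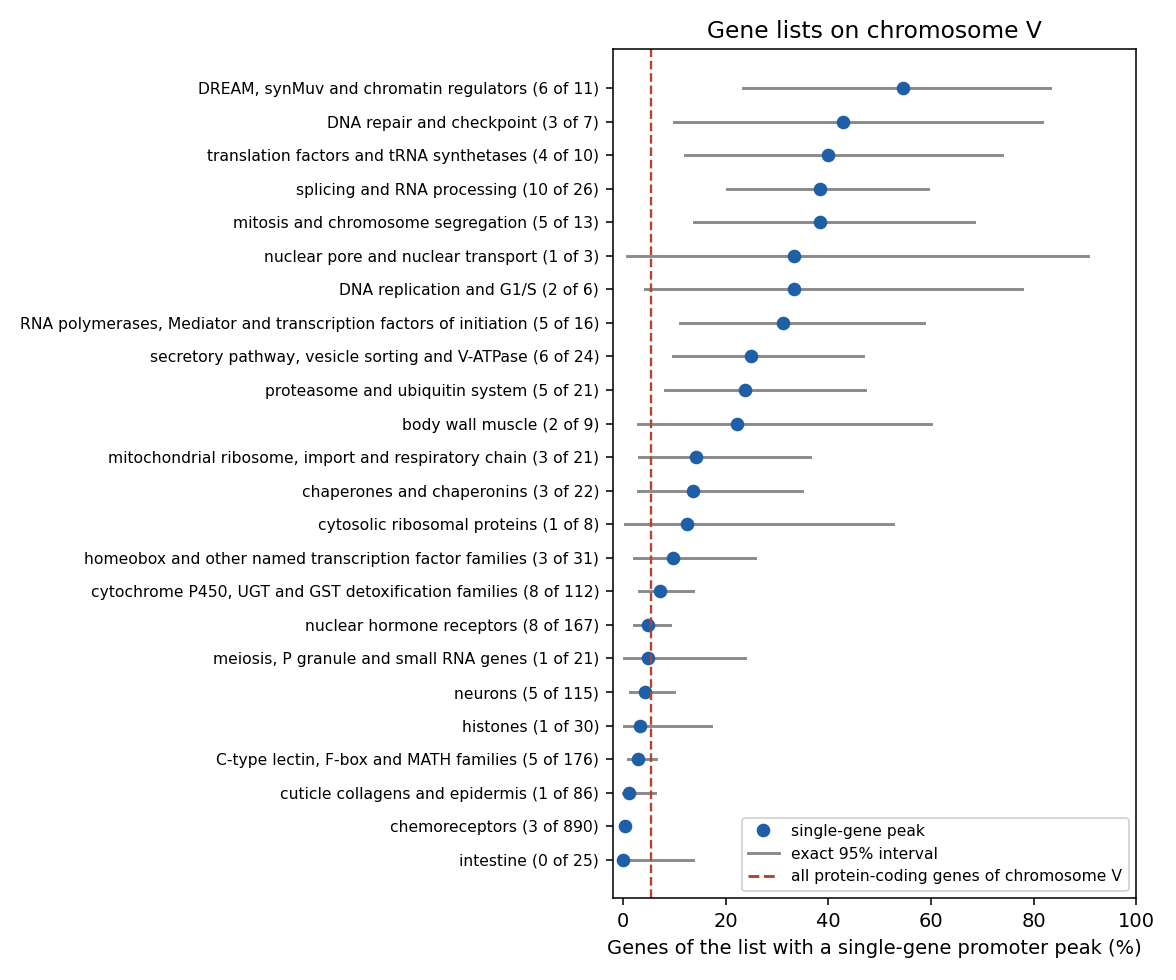
Share of the genes of each of 24 lists on chromosome V that had a single-gene promoter peak (blue points, with counts beside the names), with exact 95% intervals (grey) and the chromosome's 5.35% as a dashed line. The list of DREAM, synMuv and chromatin regulators stands at 54.5% and splicing genes at 38.5%, while chemoreceptors stand at 0.337% and intestinal genes at 0.

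In RNA handling and transcription, of 26 splicing and RNA processing genes, 10 had a single-gene peak (38.5%, interval 20.2 to 59.4), led by syf-3, lsm-5, of the Sm-like proteins (1031), and isy-1 (938), and 6 more had a shared-promoter peak. Their median signal was 338, and all 10 had a match in replicate 2. Of 16 genes of RNA polymerases, Mediator and initiation factors, 5 had a single-gene peak, led by pafo-1, ttb-1, the general factor TFIIB (1196), and taf-10, a TFIID subunit (148), and 3 more had a shared-promoter peak.

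In protein synthesis, 4 of 10 translation factor and tRNA synthetase genes had a single-gene peak, led by vars-1, ife-3, a cap-binding eIF4E protein (849), and eif-2Bdelta (239), and 1 of 8 cytosolic ribosomal protein genes, rpl-38 (333). A further 2 translation genes, eef-1G and erfa-1, and 4 ribosomal protein genes had a shared-promoter peak. Of 24 secretory genes 6 had one, led by sec-61.G, sel-9, a cargo receptor of the p24 family (623), and vps-37, an ESCRT-I subunit (428), and 5 more had a shared-promoter peak. Of 22 chaperone genes 3 had one, cyn-3, cyn-1 and the Hsp90 co-chaperone gene sti-1 (1415), which gave this list the highest median signal of all 24 (1598), and 7 more had a shared-promoter peak, hsp-90 among them.

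Of 21 mitochondrial genes 3 had a single-gene peak, tomm-20, atp-4 (109.7) and ndua-1 (53.7), and 8 a shared-promoter peak. Of 21 proteasome and ubiquitin genes 5 had a single-gene peak, led by rpt-1, an ATPase of the proteasome cap (687), cul-3, a ubiquitin ligase scaffold (271), and pas-6 (97.4), and 2 more had a shared-promoter peak. Of 3 nuclear pore and transport genes 1 had a single-gene peak, npp-22 (912), and the other 2, ima-1 and xpo-1, had a shared-promoter peak. In the lists of ribosomal, mitochondrial, chaperone, DNA replication, nuclear pore, histone and meiosis genes, fewer genes had a single-gene peak than a shared-promoter peak alone.

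Among lists of tissue genes, of 25 intestinal genes on chromosome V, ges-1 included, none had a promoter peak of either kind (0 of 25, which allows a share of up to 13.7% by the exact interval, a range that holds 5.35%), although the transgene is driven by an intestinal promoter. On the other chromosomes 5 of 49 intestinal genes had a single-gene peak (10.2%), near the 7.94% of all genes on all chromosomes. Of 86 cuticle collagen and epidermal genes 1 had a peak (1.16%, interval 0.0294 to 6.31), col-10 (44.5 pooled, 40.1 in replicate 1 and 3.17 in replicate 2). Of 115 neuronal genes 5 had one (4.35%, near the background of 5.35%), led by snb-1, the synaptobrevin gene (177), gcy-33, a guanylyl cyclase (129.8), and twk-13, a potassium channel (63.3). The summits at gcy-33, twk-13 and kvs-3, also of this list, had a noncoding gene (tRNA, snoRNA, snRNA or rRNA) within 200 bp. Those at snb-1 and eat-6 had none. Which gene such peaks belong to was not tested. Of 9 body wall muscle genes 2 had a single-gene peak (22.2%, interval 2.81 to 60.01): act-2, an actin gene (598), and unc-112, the kindlin homologue (81.01), and 1 more, unc-60, had a shared-promoter peak. The actin gene has near-identical copies, so its value is uncertain.

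Of 21 genes of meiosis, P granules and small RNA pathways 1 had a single-gene peak, him-17 (167), and 4 a shared-promoter peak. The single-gene share was 4.76% (interval 0.120 to 23.8), near the background of 5.35%. Of 31 homeobox and other transcription factor genes 3 had a single-gene peak, ztf-7 (628), ets-6 (116) and ztf-9 (42.5). That share was 9.68%, with an interval (2.04 to 25.8) that holds 5.35%.

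Among the large families, of 890 chemoreceptor genes 3 had a single-gene peak (0.337%, interval 0.0696 to 0.982): srh-2 (154), srh-269 (72.9) and srh-170 (49.0). A further 3 had a shared-promoter peak. Of 176 C-type lectin, F-box and MATH genes 5 had one (2.84%), led by fbxa-90 (62.0), fbxa-65 (59.4) and clec-57 (58.1), and 1 more had a shared-promoter peak. Nuclear hormone receptors, with 8 of 167 (4.79%), and detoxification genes, with 8 of 112 (7.14%), lay near the background of 5.35%. A further 3 nuclear hormone receptor genes had a shared-promoter peak. The strongest peaks of these lists were at nhr-256 (105), nhr-57 (80.1) and nhr-135 (63.1), and at fmo-5 (112), ugt-64 (50.02) and cyp-33C7 (45.8). None of these family peaks had a signal above 154. The fbxa-90 peak (chrV:16966685-16967004) stood beside the far stronger efl-1 peak (chrV:16965661-16966020). Likewise the fmo-5 peak (chrV:903490-903809) stood beside the stronger trm-2A peak (chrV:904639-904932). The part of these neighbours in the family signals was not tested. Among the 1863 strongest peaks of the IDR list, with signals of 94.1 or more, stood 155 of the 277 peaks. The family peaks at srh-2, fmo-5 and nhr-256 were among those 155. Of the 24 family peaks, 2 had a noncoding gene of the kinds counted here within 200 bp of the summit, those at srh-269 and clec-57.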

How the data were processed

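DPL-1 ChIP-seq was measured in 2 replicates of 1 group. The authors deposited peak lists. Notes deposited with the samples derive each replicate's list from its own alignment plus a control. They derive the pooled list from the 2 alignments plus the control, and the IDR list from pooled and per-replicate peaks. Which aligner and peak caller were used, and in which versions, is not given in the sources used here. Peak signal is as deposited by the authors, on an unstated scale, and was used to describe, rank and match peaks. Read depth is unknown.

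Summits of the ce11 IDR list were assigned to windows around 29314 protein-coding transcript starts of 19973 genes (Ensembl release 115, WBcel235, whose chromosomes match ce11). Summits within 100 bp were matched, taking the highest signal. Strings were searched within 50 bp of summits. Gene lists went by symbol or name stem. The members and lists were chosen with earlier results of these data known, and the lists were corrected after values were seen. Genes named were the 15 strongest, up to 3 per list, the 3 strongest per arm, the 3 weakest, the 3 strongest unmatched in a replicate, the extreme replicate ratios, efl-1 and those at the window edges; other genes were named after their values were seen. Exons were not overlapped by the printed windows. With 1 group no test over samples exists, and peaks are not replicates, so shares have exact Clopper-Pearson intervals at 95% confidence that cover counting alone. The assignment and matching code was tested on simulated data, and the string search was not part of that test. Alternatives were each replicate's 3726 strongest peaks, the stronger 1863 peaks, other promoter windows and assignment, other boundaries of the centre, other match distances and string windows, the ce10 list, and 3 added after the data were seen. Python 3.11.15, numpy 2.4.6, pandas 2.3.3, scipy 1.17.1 and matplotlib 3.10.9 were used.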

Additional observations from a re-analysis of the deposited data

How the results depend on the processing

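Of 59 recomputed values of the main results, 43 stayed within the interval of the value reported (counts within 1.5 times), and none reversed. No paired analysis was possible because the series holds 1 group. With each replicate's 3726 strongest peaks alone, the median signal was 18.9 to 95.1 and the share matched in the other replicate's list was 87.3% to 89.1%. The stronger 1863 peaks left 155 peaks, 3.04% of genes, 54 listed genes, a median signal of 323, a match in replicate 2 of 98.7% and a CHR-like share of 34.8%. Assigning each summit to the nearest start within 500 bp gave 7.49% of genes, and leaving out the large families 6.66%. With the centre as the middle 1/3 of the length, it held 45.5% of peaks. Matching within 50 bp gave 80.1% in replicate 2 and 98.2% in replicate 1, and within 200 bp 96.4% in replicate 2. Within 100 bp of the summit an E2F-like string was present at 22.7% of peaks, against 6.76% of background windows, and a CHR-like string at 46.6%, against 55.9%. Of 72 recomputed list counts, 68 stayed within 1.5 times. The exceptions were 0 collagen and epidermal genes and 1 transcription factor gene without replicate 1, and 2 collagen and epidermal and 9 neuronal genes with the lists as first written. The ce10 list held 586 peaks on chromosome V, against 580 in ce11. Of the 122 peaks outside the 1863 strongest of the IDR list, 82.8% had a match in replicate 2, and the part of read depth, which the lists do not give, was not tested.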

Other observations

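Other genes of chromosome V that fell in none of the lists also had strong single-gene promoter peaks. With slr-2 and F13A7.14 (1374), they were rft-2, a riboflavin transporter gene (1019), sluh-7, a homologue of a splicing factor (1011), mtm-9, a myotubularin-family gene (999), and cwf-19L1, a homologue of a spliceosome-associated protein (854). Further peaks stood at pptr-2, a regulatory subunit of protein phosphatase 2A (829), sel-10, an F-box protein of the Fbw7 type (548), and crt-1, calreticulin (358). These genes were chosen for their values and carry no test.

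Genes of tRNA, snoRNA, snRNA or rRNA, the only noncoding kinds counted, lay within 200 bp of the summit at 10 of the 277 single-gene promoter peaks (3.61%). This compares with 28 of the 200 peaks outside promoters on chromosome V (14.0%) and 2.97% of the single-gene promoter peaks of other chromosomes. The intervals were 1.74 to 6.54% for the single-gene promoter peaks of chromosome V and 9.51 to 19.6% for its peaks outside promoters. The 10 peaks lay at F09G2.2, snr-4, Y75B12B.11, gcy-33, pqn-71, srh-269, twk-13, kvs-3, clec-57 and ZC412.10. Whether they belong to these protein-coding genes or to the noncoding ones was not tested.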
